A study of Sus scrofa and Bos taurus with 31 samples.

Results

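Open chromatin of cattle cerebral cortex was compared with that of cattle hypothalamus, using the peak lists of 4 ATAC-seq libraries among the 15 from cattle and the 31 of the series. Each tissue had a library from the animals M08 and M22, so there were 2 libraries per tissue and every animal gave both tissues. Both cattle were intact male Line 1 Herefords of the same sire, slaughtered at 14 months, and the labels name no treatment. Nuclei were frozen before use, and each library came from a piece of whole tissue, so a list mixes the neurons, glia and vessel cells of its sample. The labels could not be checked against marker genes, because no cattle annotation was used here and the lists name no genes. For the same reason regions are given by position only, on the ARS-UCD1.2 assembly.

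ATAC-seq uses a transposase that cuts and tags DNA where nucleosomes leave it exposed, so that peaks of reads mark promoters, enhancers and insulators that are accessible in the cells. Promoters of genes used by most cells tend to be open in many tissues, whereas distant enhancers tend to differ more between cell types. The cerebral cortex holds mainly excitatory projection neurons and local inhibitory neurons arranged in layers. The hypothalamus holds clusters of neuroendocrine and peptide-releasing neurons that govern feeding, body temperature, growth, reproduction and stress. Both contain oligodendrocytes, astrocytes and microglia.

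The 4 lists differed in length before any comparison. The cortex lists held 78231 peaks in M08 and 154683 in M22, and the hypothalamus lists held 63147 in M08 and 37204 in M22. Every list was therefore reduced to its best 37204 peaks by q-value, which kept 47.6% of the cortex list of M08, 24.1% of that of M22, 58.9% of the hypothalamus list of M08 and the whole hypothalamus list of M22. The −log10 q-value of the last peak kept was 3.005 and 5.23 in the cortex of M08 and M22, and 2.20 and 1.01 in the hypothalamus of M08 and M22. The weakest peaks compared were thus far less certain in the hypothalamus of M22 than in the cortex of the same animal. The peaks just outside the limit had the same rounded values as those just inside it in the 3 shortened lists, at 3.005, 5.23 and 2.20. The lists give no counts, and no adjustment was made for how deeply a sample was sequenced.

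Merging peaks that share at least 1 bp gave 71654 regions that covered 41.4 Mb. Of these, 15112 regions were shared, meaning that all 4 libraries had a peak in them, 3839 had a peak in both cortex libraries and in neither hypothalamus library (cortex-only), and 891 showed the reverse (hypothalamus-only). These sets made up 21.1%, 5.36% and 1.24% of all regions, so there were 4.31 cortex-only regions for each hypothalamus-only region. Sets of 2 libraries that do not follow tissue were also counted. Both libraries of M08 and neither of M22 had 2244 regions (3.13%), and both libraries of M22 and neither of M08 had 740 (1.03%). The crossed pair of cortex M08 and hypothalamus M22 had 724 regions (1.01%), and that of cortex M22 and hypothalamus M08 had 1946 (2.72%). The cortex-only set was therefore the largest of the 6 sets of 2 libraries, whereas the hypothalamus-only set was smaller than the M08 set and one crossed set and larger than the M22 set and the other crossed set. Without the hypothalamus library of M22, 5352 regions had a peak in both cortex libraries and not in the hypothalamus of M08, and 8758 had the reverse, a set that then needs a peak in only 1 library. In the plot of regions by pattern, the tallest bar was neither tissue's set but the 16815 regions (23.5%) seen in the hypothalamus of M22 alone.

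**Figure D1:**
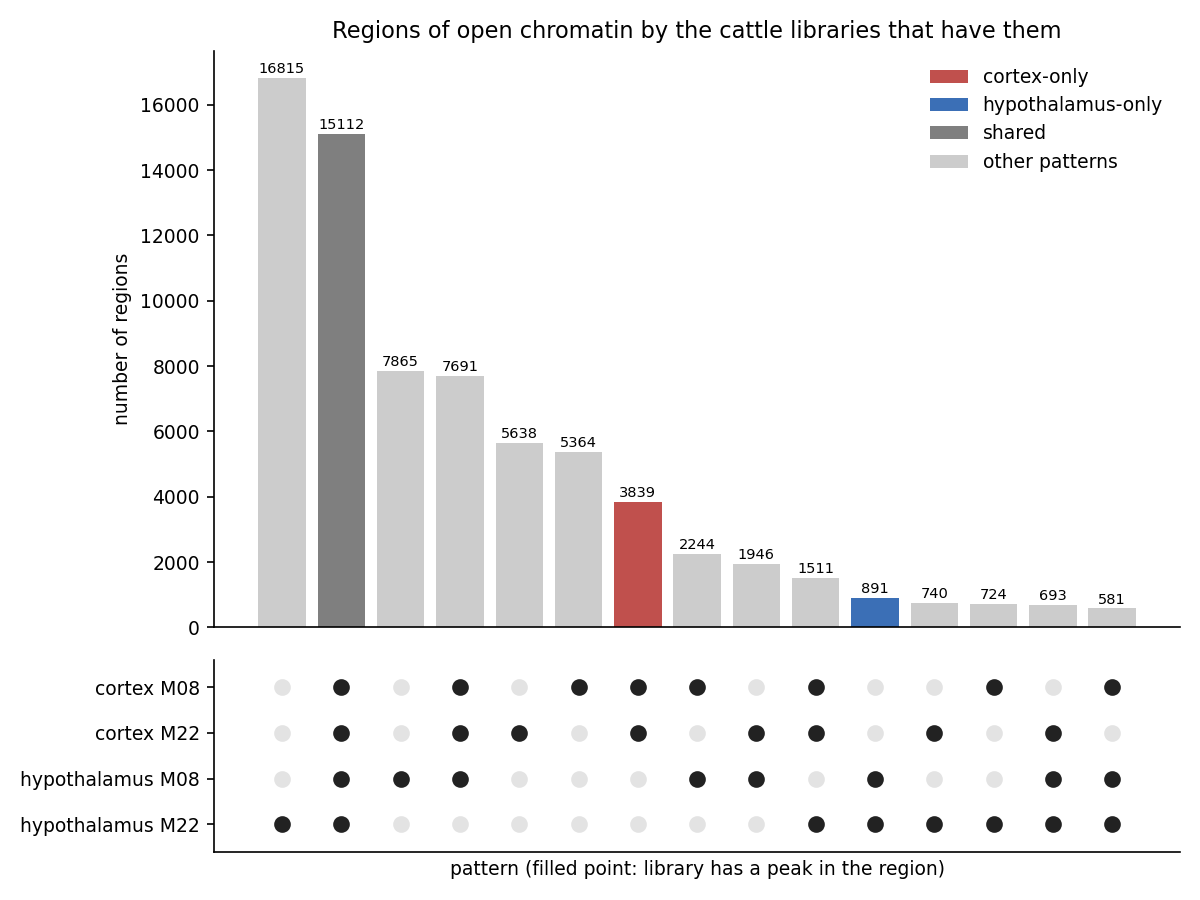
Number of merged regions (upper panel, bars) for each of the 15 combinations of the 4 cattle libraries (lower panel, filled points mark the libraries with a peak). The hypothalamus of M22 alone had 16815 regions, shared regions numbered 15112, cortex-only regions 3839 and hypothalamus-only regions 891.

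Agreement between the animals was lower in hypothalamus, where the list of M22 was kept whole, down to a −log10 q-value of 1.01. A total of 28153 regions had a peak in both cortex libraries, which was 61.1% of the 46083 with a peak in either. In hypothalamus 17277 regions had a peak in both libraries, or 30.4% of 56813. Most of these reproducible hypothalamus regions were also cortex regions, since 87.5% had a peak in both cortex libraries and 5.16% in neither. Of the reproducible cortex regions, 53.7% had a peak in both hypothalamus libraries, 32.7% in 1 of them and 13.6% in neither. The 87.5% and the 53.7% count the same 15112 shared regions against different totals. The 7691 regions with a peak in every library but the hypothalamus of M22 made up 10.7% of all regions, and the 1511 that lacked only the hypothalamus of M08 made up 2.11%.

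In bases, the overlap of 2 lists (Jaccard index, the shared length divided by the joint length) was 0.506 between the cortex libraries and 0.254 between the hypothalamus libraries. The hypothalamus of M08 overlapped the cortex lists more, at 0.447 for the same animal and 0.414 for the other, than it overlapped the hypothalamus of M22. For the hypothalamus of M22 all 3 indices were close together, at 0.254 with the other hypothalamus, 0.258 with the cortex of the same animal and 0.277 with that of the other. By this measure the hypothalamus of M08 resembled both cortex libraries more than it resembled its own tissue in M22.

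The excess of cortex-only regions followed the number of peaks kept. With the best 1000 peaks of each library there were 109 cortex-only and 69 hypothalamus-only regions, a ratio of 1.58. The ratio was 1.47, 1.46 and 1.51 with 2000, 5000 and 10000 peaks, and rose to 2.58, 3.90 and 4.31 with 20000, 30000 and 37204. Hypothalamus-only regions grew from 516 at 10000 peaks to 891 at full length, whereas cortex-only regions grew from 781 to 3839. Over the same range, regions seen in the hypothalamus of M22 alone went from 2218 to 16815. The −log10 q-value of the last peak kept in that library was 3.03 at 10000 peaks and 1.01 at 37204, and the part of these weak peaks in the ratio was not tested. Within a single animal the sets were nearly equal in size, with 11511 regions in the cortex of M08 and not its hypothalamus against 11458 of the reverse, and 19148 against 19031 in M22, as lists of equal length require. The imbalance thus lay in which regions recurred in both animals, and its ratio was about 1.5 with 1000 to 10000 peaks kept. A tissue-only region of these shorter lists can still have a lower-ranked peak in the other tissue. With 37204 peaks kept, few of the best 1000 peaks lay in regions of their own tissue only. Their share was 0% in both cortex libraries, and 0.1% and 0.3% in the hypothalamus of M08 and M22.

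**Figure D2:**
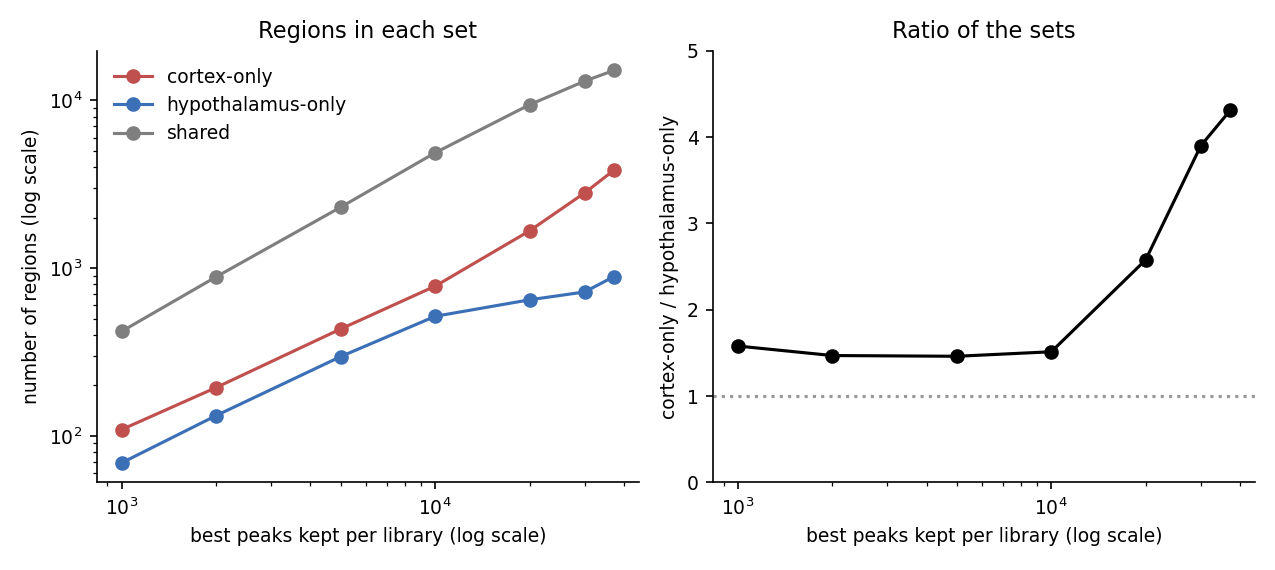
Left, number of cortex-only, hypothalamus-only and shared regions against the number of best peaks kept per library (both axes logarithmic). Right, cortex-only regions per hypothalamus-only region, which lay between 1.46 and 1.58 up to 10000 peaks and reached 4.31 at 37204 (dotted line, equal numbers).

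The strongest peaks of both tissues were common to them. Of the best 1000 peaks, 99.8% and 99.4% in the cortex of M08 and M22, and 99.2% and 98.8% in the hypothalamus of M08 and M22, lay in shared regions. Of the last 1000 peaks kept, 6.5%, 6.5%, 9.7% and 4.9% did so in the same order. A region of 1 library alone held 46.2%, 46.4% and 53.0% of the last peaks in the first 3 libraries and 86.0% in the hypothalamus of M22. By rank, where 1 is the best peak, the median shared region stood between 8216 and 9444 of 37204 in the 4 libraries. The median cortex-only region stood at 24901 in M08 and 24360 in M22, and the median hypothalamus-only region at 29408 in M08 and 22545 in M22. The best-ranked cortex-only region was at 2996 in M08 and 1915 in M22, and the best-ranked hypothalamus-only region at 884 in M08 and 9 in M22. The best 18602 peaks held 23.8% and 27.6% of cortex-only regions in M08 and M22, and 14.4% and 36.5% of hypothalamus-only regions.

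Many hypothalamus-only regions did have a peak in cortex that ranked below the limit. The limit was stricter in cortex by q-value, so such a peak need not be weaker than that of the hypothalamus. In the complete cortex lists, 542 of the 891 (60.8%) met a peak in M08 and 795 (89.2%) in M22, 521 met one in both, and 75 (8.42%) in neither. Of the 3839 cortex-only regions, 898 (23.4%) met a peak in the complete hypothalamus list of M08. The hypothalamus list of M22 was used whole and could add none, so that 2941 (76.6%) had no peak in either. These shares rest on lists of unequal length and are not directly comparable. In these tissue samples, a smaller number of cells with the region open and a lower accessibility in each cell cannot be told apart.

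Tissue-only regions were narrower than shared ones. The median width was 356 bp in the cortex-only set (interquartile range 290 to 659), 563 bp in the hypothalamus-only set (337 to 883.5) and 857.5 bp in the shared set (524 to 1242). Regions wider than 1 kb made up 11.5%, 17.6% and 39.5% of these sets. A merged region grows with the number of peaks in it, so width and the number of libraries are linked by construction. The sets of 2 libraries can be compared at equal number, and their medians ran from 345.5 bp for the M08 pair to 666 bp for the M22 pair. The hypothalamus-only median of 563 bp lay among the 3 pairs that include the hypothalamus of M22 (563 to 666 bp), and the cortex-only median among the 3 without it (345.5 to 363 bp). In total the cortex-only set covered 2.03 Mb, the hypothalamus-only set 0.595 Mb and the shared set 14.5 Mb.

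Fold enrichment, the ratio of reads in a peak to the local background as the peak caller gave it, was lower in tissue-only than in shared regions of each library. For each region the highest value of a library's peaks was taken. In the cortex of M08 the median was 4.88 in cortex-only and 6.56 in shared regions, and in the cortex of M22 it was 5.40 and 6.91. In the hypothalamus of M08 it was 3.83 in hypothalamus-only and 5.28 in shared regions, and in that of M22 it was 3.57 and 4.60. The middle 80% of cortex-only values ran from 4.23 to 6.23 in M08 and from 4.29 to 7.43 in M22. That of hypothalamus-only values ran from 3.38 to 4.69 and from 3.16 to 4.31. The highest cortex-only fold was 11.5 in M08 and 13.5 in M22, against 28.5 and 28.9 among shared regions of the same libraries. As the sets were chosen from these peaks, the differences are descriptions without a test.

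**Figure D3:**
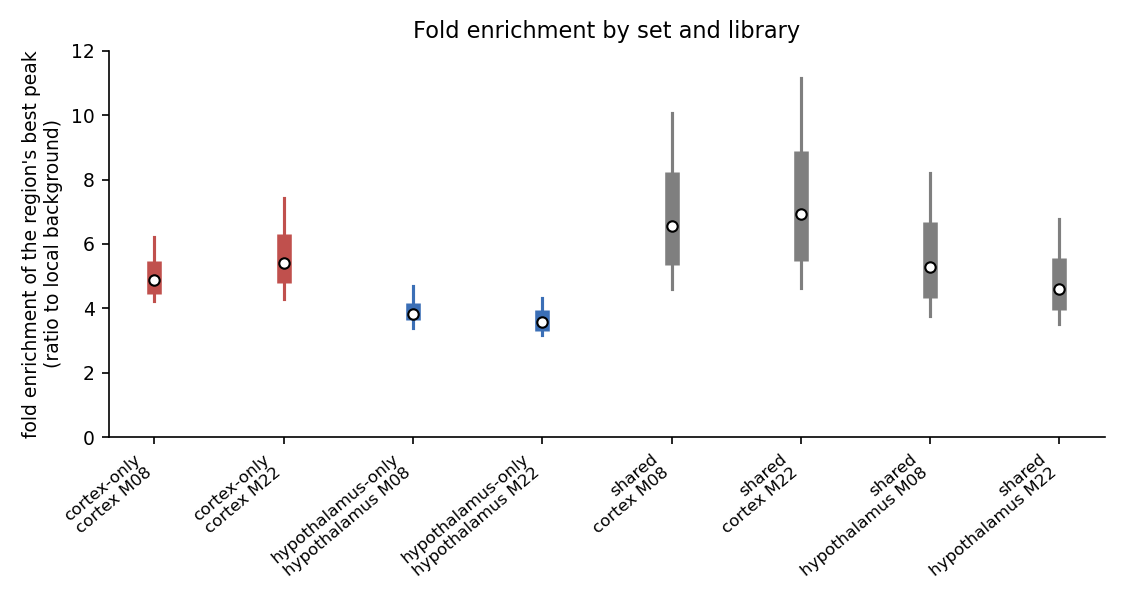
Fold enrichment (ratio to local background, linear axis from 0) of the best peak per region in each set and library, with the median (point), the quartiles (thick line) and the 10th to 90th percentile (thin line). Medians of shared regions were 6.56, 6.91, 5.28 and 4.60, above the tissue-only medians of the same libraries at 4.88, 5.40, 3.83 and 3.57.

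Each library as a whole followed the same order at equal length. The median fold of the 37204 peaks was 5.34 and 5.80 in the cortex of M08 and M22 and 4.42 and 3.76 in the hypothalamus. At this length the tissues did not overlap, but the cut kept a smaller, better part of the longer cortex lists. The means were 5.57 ± 0.320 and 4.09 ± 0.468 (SD, n = 2 libraries), which differed by 1.48 (two-sided exact permutation p = 0.333, adjusted p = 0.444 over 4 values). Over whole lists of unequal length the medians were 4.02 and 3.45 in the cortex of M08 and M22 and 3.70 and 3.76 in the hypothalamus. The tissues then overlapped, with the order turned in M22, and the difference of the means was 0.00872 (exact permutation p = 1). The covered length was 19.0 and 24.3 Mb in cortex and 18.1 and 17.5 Mb in hypothalamus, with means of 21.6 ± 3.79 and 17.8 ± 0.374 Mb (SD, n = 2; exact permutation p = 0.333, adjusted p = 0.444), and the difference of 3.84 Mb became 41.5 Mb with whole lists. The median peak width was 339 and 463 bp in cortex and 325 and 347 bp in hypothalamus, so here the groups overlapped (exact permutation p = 0.667, adjusted p = 0.667). With 2 libraries against 2 the smallest p this test can give is 0.333. No difference could pass the threshold of 0.05 in this design, and the values are given with their spread only.

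Among the 15112 shared regions, fold values as listed were higher in cortex than in hypothalamus in every pair of libraries for 10783 regions (71.4%) and lower in every pair for 177 (1.17%), whereas with values divided by each library's own median the split turned to 2680 higher (17.7%) and 3611 lower (23.9%). The median ratio of cortex to hypothalamus was 1.23 in M08 and 1.45 in M22 as listed, and 0.989 and 0.966 after the division. The direction of a typical shared region thus depended on the scaling, and differences are given below only on the divided scale. With a margin of at least 1.5 between the lower value of one tissue and the higher value of the other, 41 shared regions were higher in cortex and 48 in hypothalamus.

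The widest such margin on the cortex side was 1.85, at chr10:44659446-44660307, with listed folds of 11.7 and 11.08 in the cortex of M08 and M22 and 4.07 and 3.99 in the hypothalamus. The next were chr8:71149045-71149536 (margin 1.76, folds of 10.7 and 15.1 in cortex and 4.81 and 4.28 in hypothalamus) and chr2:20814772-20816005 (margin 1.75, folds of 10.4 and 10.1 against 3.68 and 3.82). On the hypothalamus side the widest margin was 2.176, at chr2:37901107-37902972, where the hypothalamus folds were 11.5 and 9.51 and the cortex folds 6.23 and 5.98. It was followed by chr6:91992865-91994872 (margin 2.10, hypothalamus folds of 8.29 and 8.92 and cortex folds of 4.86 and 5.17) and chr6:19456762-19457089 (margin 1.94, folds of 7.91 and 6.68 against 4.92 and 4.68). These 6 regions were the most extreme of those open in both tissues. In each of them the values of the tissues did not overlap on either scale.

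The 5 cortex-only regions with the highest lower fold were all narrow, between 287 and 329 bp. The first, chr2:42810051-42810379 (329 bp), had a fold of 10.2 in the cortex of M08 and 10.3 in that of M22, and the cerebellum, lung and spleen of M22 also had a peak there. At chr22:29765430-29765734 (305 bp) the folds were 9.70 and 11.03, and at chr1:44064625-44064922 (298 bp) they were 9.51 and 12.3. Each of the latter regions had a peak in 8 of the 11 other cattle libraries, including cerebellum, liver, lung and skeletal muscle. The remaining regions, chr21:47163935-47164221 (9.17 and 13.0) and chr10:67700934-67701244 (8.67 and 10.9), were seen in 7 other libraries each. In the order given, the highest fold in another library was 4.12, 9.25, 11.2, 8.17 and 13.7. The last of these exceeded both cortex folds, and that on chromosome 1 exceeded the cortex fold of M08. None of the 5 met a peak in either complete hypothalamus list, and none was open in cortex alone among the cattle tissues, since each had a peak in the cerebellum library.

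The leading hypothalamus-only region differed from all others of its set. It lay at chr10:34681772-34681991 (220 bp), reached a fold of 12.3 in M08 and of 29.96 in M22, with −log10 q-values of 23.5 and 120, and was seen in no cortex list and none of the 11 other libraries. Its fold in M22 was the highest of any peak in that list. The next regions had much lower folds. They were chr3:3041743-3042032 (5.45 in M08 and 5.48 in M22), chr28:504107-505234 (5.21 and 5.46), chr24:52746707-52746981 (5.47 and 5.06) and chr1:70072599-70073031 (5.54 and 5.03). All 4 met a peak in at least 1 complete cortex list. The region on chromosome 28 had a peak in all 11 other cattle libraries and that on chromosome 1 in 8, whereas those on chromosomes 3 and 24 had none there. The highest folds in those libraries were 8.96 on chromosome 28 and 9.98 on chromosome 1, above the hypothalamus folds.

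The strongest shared regions had closely similar listed folds in the 4 libraries and a peak in all 11 others. At chr4:49187003-49187291 (289 bp) the folds were 23.7 and 24.6 in cortex and 22.8 and 23.3 in hypothalamus. At chr1:6042785-6043231 (447 bp) they were 18.3 and 20.4 in cortex and 19.2 and 19.1 in hypothalamus. At chrX:53971939-53972415 (477 bp) they were 18.5 and 18.1 against 17.1 and 17.2. As listed, the folds of both tissues stood within a narrow range. The library medians over shared regions were 6.56 and 6.91 in cortex and 5.28 and 4.60 in hypothalamus. Divided by these medians, the folds of these regions were higher in hypothalamus than in cortex in every pair of libraries.

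Cortex-only regions outnumbered hypothalamus-only regions on each of the 30 placed chromosomes. The share of a chromosome's regions that was cortex-only had a median of 5.33% and ran from 3.50% on chromosome 27 to 7.76% on chromosome 18, where there were 148 cortex-only and 16 hypothalamus-only regions. The hypothalamus-only share ran from 0.774% on chromosome 23 to 1.70% on chromosome 17. The ratio of the sets was lowest on chromosome 27 (2.62) and highest on chromosome 18 (9.25). The shared part was smallest on chromosome 19 (16.9%) and largest on X (26.8%). Read against the shares over all regions, 5.36% and 1.24%, neither set was gathered on a few chromosomes.

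**Figure D4:**
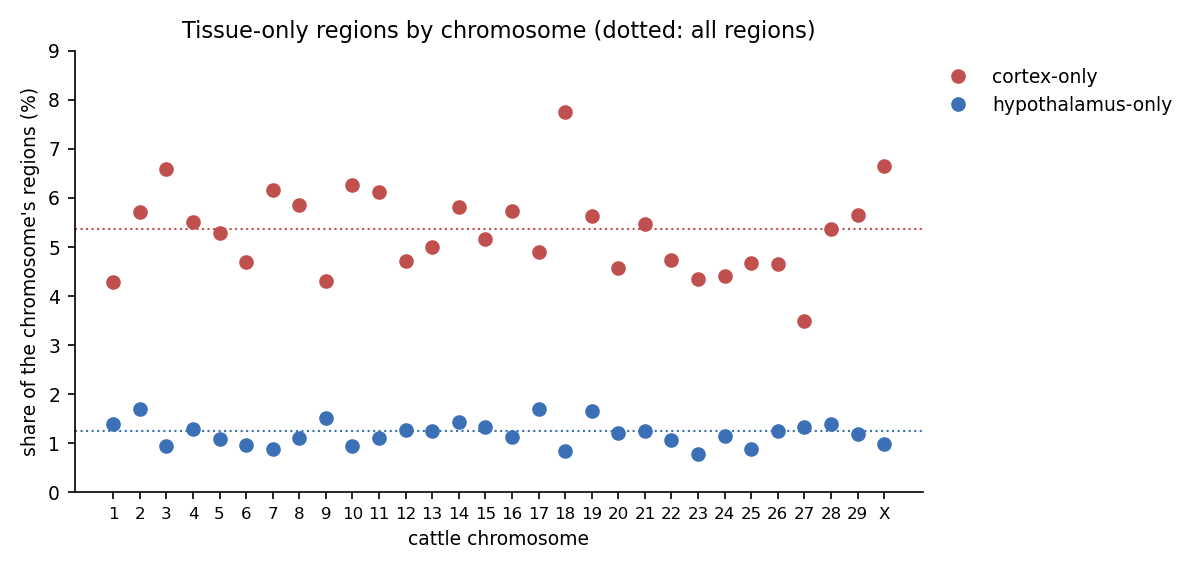
Share of each chromosome's merged regions (percent, axis from 0) that was cortex-only or hypothalamus-only, for chromosomes 1 to 29 and X. Dotted lines give the shares over all regions, 5.36% and 1.24%, and the cortex-only point lay above the hypothalamus-only point on every chromosome, with the widest gap on chromosome 18.

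By set, chromosome X held 95 of the cortex-only regions (2.47%, 95% Wilson interval 2.03 to 3.02), 14 of the hypothalamus-only regions (1.57%, 0.938 to 2.62) and 382 of the shared regions (2.53%, 2.29 to 2.79). The 3 intervals, which cover counting error only, overlapped. Sequences not placed on a chromosome held 66 cortex-only regions (1.72%, 1.35 to 2.181) and 39 hypothalamus-only regions (4.38%, 3.22 to 5.93), against 367 shared regions (2.43%, 2.19 to 2.69). On these sequences the ratio of the sets was 1.69. Of the peaks of each library, 2.34% and 2.46% were on X in cortex and 2.29% and 1.79% in hypothalamus (means of 2.40% ± 0.0836 and 2.04% ± 0.352, SD, n = 2; exact permutation p = 0.333, adjusted p = 0.444). The difference of 0.359 points was 0.0662 with whole lists.

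Tissue-only regions were spread along the chromosomes. In windows of 1 Mb the mean was 1.43 cortex-only and 0.324 hypothalamus-only regions over the 2632 windows that held any region. Of these windows, 839 had no cortex-only region and 1935 had no hypothalamus-only region. The densest cortex-only windows were on chromosome 10 from 65 to 66 Mb, with 10 cortex-only and 0 hypothalamus-only among 51 regions, on chromosome 5 from 25 to 26 Mb, with 9 and 1 among 50, and on X from 3 to 4 Mb, with 8 and 0 among 32. The densest hypothalamus-only windows were on chromosome 2 from 126 to 127 Mb, with 5 hypothalamus-only and 4 cortex-only among 48 regions, on chromosome 5 from 116 to 117 Mb, with 4 and 1 among 42, and on chromosome 9 from 32 to 33 Mb, with 4 and 3 among 46. The median distance to the nearest shared region was 48.2 kb for cortex-only and 56.6 kb for hypothalamus-only regions, and 58.1 kb for all regions that were not shared. Within 10 kb of a shared region lay 12.7% of cortex-only, 10.2% of hypothalamus-only and 11.3% of all regions that were not shared.

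The 11 libraries of the 6 other cattle tissues took no part in choosing the sets, but they came from the same animals. Shared regions were chosen for a peak in all 4 brain libraries, and their peaks ranked better than those of tissue-only regions. A higher share in other tissues can follow from that choice, and no adjustment was made for peak strength. Shared regions were open most widely. They had a peak in 72.7% of cases in the adipose of M08, the lowest share, and in 94.9% in the cerebellum of M22, the highest. Averaged over tissues, 86.5% ± 6.27 of shared, 57.9% ± 15.9 of cortex-only and 61.7% ± 10.7 of hypothalamus-only regions had a peak in another tissue (SD, n = 6 tissues). The difference from shared regions was -28.6 percentage points (± 9.83, SD) for cortex-only regions, which were lower in 6 of 6 tissues, and -24.8 points (± 6.03, SD) for hypothalamus-only regions, also lower in 6 of 6. When the signs of the 6 tissue differences were flipped in every combination (exact permutation, two-sided), p was 0.03125 for both, the smallest value this test can give, with an adjusted p of 0.0469 over 3 differences. Without cerebellum, which had 1 library, the 5 tissues left could not reach 0.05 (differences of -30.6 and -25.1, exact permutation p = 0.0625). A wider region meets a peak more easily, and among regions under 500 bp the shares were 71.5% of 3500 shared, 52.1% of 2507 cortex-only and 50.4% of 401 hypothalamus-only regions.

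Between cortex-only and hypothalamus-only regions the difference was smaller than the spread between tissues. Its mean was -3.76 points (± 7.27, SD, n = 6), cortex-only being higher in 2 tissues and lower in 4 (exact permutation p = 0.3125, adjusted p = 0.3125), and its sign changed with the length of the lists, to 8.69 with the other lists cut to 37204 peaks (exact permutation p = 0.09375) and 18.0 with 18602 peaks per brain library (exact permutation p = 0.03125). Without the hypothalamus library of M22 it was 27.2 points (exact permutation p = 0.03125), and the differences from shared regions were then -14.5 and -41.7. In the cerebellum of M22, the remaining brain tissue, 76.4% of cortex-only and 71.5% of hypothalamus-only regions had a peak. In adipose the shares were 26.8% and 36.3% in M08 and 42.3% and 59.8% in M22. In spleen they were 35.7% and 55.7% in M08 and 64.8% and 68.4% in M22. Lung, whose list in M08 was the longest of the other cattle libraries, had 73.4% and 77.4% in M08 and 77.2% and 75.6% in M22. The sets lay furthest apart in adipose and in the spleen of M08, where hypothalamus-only regions were met more often.

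**Figure D5:**
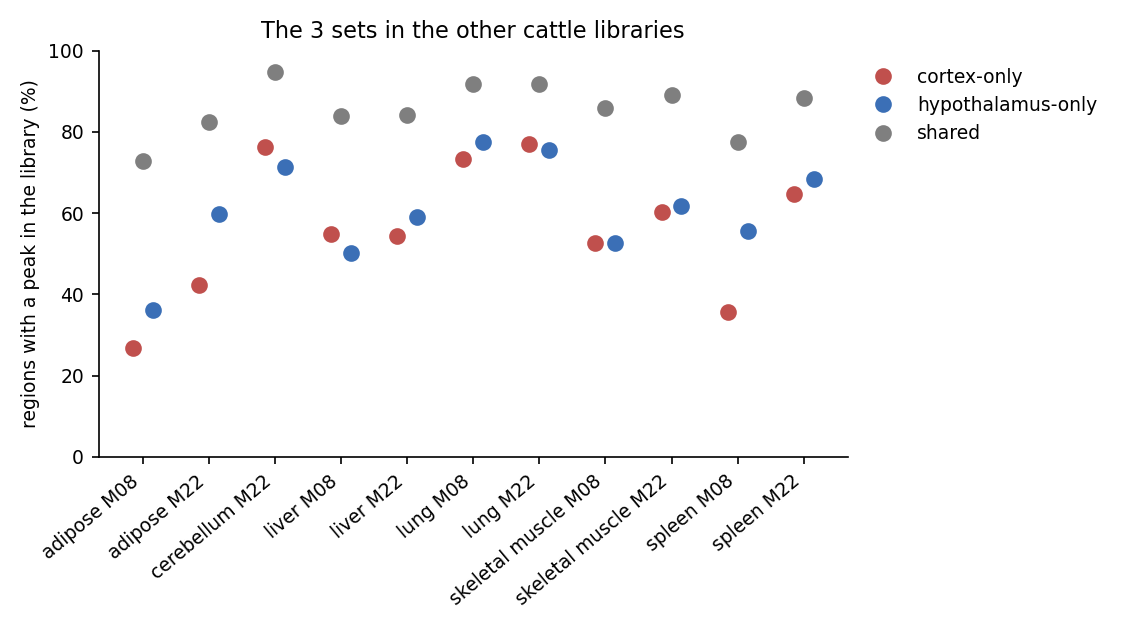
Share of cortex-only, hypothalamus-only and shared regions (percent, axis from 0 to 100) with a peak in each of the 11 other cattle libraries. Shared regions lay highest in every library, from 72.7% to 94.9%, and the tissue-only sets lay apart by the most in adipose and in the spleen of M08.

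Few regions of the tissue-only sets were absent from all other tissues, whose lists were used whole. The pairs of libraries that do not follow tissue were not counted in this way. These shares are thus not shown to be particular to the tissue-only sets. No other library had a peak in 224 cortex-only regions (5.83%, 95% Wilson interval 5.14 to 6.62), 48 hypothalamus-only regions (5.39%, 4.09 to 7.07) and 248 shared regions (1.64%, 1.45 to 1.86). Regions met in the cerebellum library and in none outside the brain numbered 175 in the cortex-only set (4.56%), 13 in the hypothalamus-only set (1.46%) and 231 in the shared set (1.53%). All 11 libraries had a peak in 12.8% of cortex-only, 16.4% of hypothalamus-only and 64.5% of shared regions. The median tissue-only region of either set was met in 7 of the 11. Regions of a single brain library were met less widely, with 13.2% of those of the hypothalamus of M22 and 20.5% of those of the hypothalamus of M08 in no other library, and medians of 4 and 3 libraries.

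At equal list length, the same comparison in the pigs of the series, P348 and P350, was less uneven. These pigs were castrated male littermates of the Yorkshire breed and younger than the cattle, so species is not the only difference. With pig lists of the same length, 37204 peaks each, there were 4785 cortex-only, 2581 hypothalamus-only and 20039 shared regions among 61802, a ratio of 1.85. At the length of the shortest pig list, 105665 peaks, the ratio was 1.90, with 20979 and 11036 regions. The −log10 q-value of the last peak kept at 37204 peaks was 2.93 to 7.20 in the pig libraries, against 1.01 to 5.23 in cattle. With 10000 peaks per cattle library these values were 3.03 to 17.4, and the cattle ratio was 1.51. No pig ratio was computed with 10000 peaks, so the species cannot be ordered at that length. A pig library alone had between 3624 and 10094 regions, below the 16815 of the cattle hypothalamus of M22. The difference between species was not tested.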

How the data were processed

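ATAC-seq peak lists of the cerebral cortex and hypothalamus of 2 cattle were analysed, 1 list per library, not pooled. The submitters' processing notes name Trim Galore 0.4.5, BWA 0.7.17, SAMtools 1.10 and Picard 2.18.17, and the authors called broad peaks with MACS2 on ARS-UCD1.2. A shift of read ends is not given in these sources. Methods state a q-value limit of 0.05, but the lists reach a −log10 q-value of 1.00. The deposited fold enrichment is a ratio to local background and the deposited −log10 q-value depends on depth. Deeper libraries give more and weaker peaks, and no adjustment was made for this.

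Lists were cut to the shortest by −log10 q-value, ties by fold, and merged at 1 bp. Groups came from the labels. Library values were compared by exact permutation tests, and shares in other tissues by exact sign-flip tests, with Benjamini-Hochberg adjustment (Python 3.11.15, numpy 2.4.6, pandas 2.3.3, scipy 1.17.1). P-values measure only the spread between these libraries or tissues. Scripts were tested on simulated lists. No list was identical to another. Samples of the same animal name come from the same animal and are paired by it. Jaccard indices between tissues were 0.447 and 0.258 within animals and 0.277 and 0.414 between them.

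Named regions were the 5 of each tissue-only set and the 3 shared ones with the highest lowest fold, and the 3 densest windows of 1 Mb per set. The 6 shared regions with the widest margin were chosen after their values were seen. Members and rules were chosen with earlier results of these data known. Alternatives were other list lengths, ranking by fold, merging within 500 bp, 50% coverage, autosomes, a q-value limit of 0.01 and leaving out animals, libraries or cerebellum. Cattle genes and sequences were not analysed here.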

Additional observations from a re-analysis of the deposited data

Results flagged for a closer look

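The share of peaks on chromosome X, at equal list length, moved in opposite directions in the species. It was higher in cortex than in hypothalamus in both cattle, by 0.0511 percentage points in M08 and 0.667 in M22. In the pigs it was lower in cortex, with differences of -0.212 in P348 and -0.293 in P350. The mean difference in cattle exceeded that in pigs by 0.611 points, and this was not tested. The pigs were also castrated and younger than the cattle, which cannot be told apart from species. With whole lists the difference in cattle was 0.0662 points, against 0.359 at equal length (exact permutation p = 0.667 and 0.333). The difference in M08 was small beside that in M22, whose hypothalamus list was the shortest.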

How the results depend on the processing

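The number of cortex-only regions was 20248 with whole lists, 1573 at a list length of 18602 and 1511 with a q-value limit of 0.01, which also shortened every list to 18030 peaks, and that of hypothalamus-only regions was 442 with whole lists. Shared regions numbered 8848 at 18602 peaks, 7997 where peaks had to cover 50% of a region and 8603 with the stricter limit and 18030 peaks. With 1000, 2000, 5000, 10000 and 20000 peaks, lengths chosen after seeing the data, there were 109, 194, 434, 781 and 1668 cortex-only regions and 420, 887, 2312, 4875 and 9428 shared regions, and up to 10000 there were 69, 132, 297 and 516 hypothalamus-only regions. Leaving out an animal or, chosen after seeing the data, a single library moved cortex-only regions to between 5352 and 19148, hypothalamus-only regions to between 1463 and 19031 and shared regions to between 15677 and 25651. Without the hypothalamus library of M22 there were 5352 cortex-only, 8758 hypothalamus-only and 22802 shared regions, so the ratio turned, but a region then needs only 1 hypothalamus library. Without that of M08 there were 11542 and 17728, and without the cortex library of M08 or M22 there were 9482 and 1463, or 9277 and 1576.

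The difference of -3.76 points between cortex-only and hypothalamus-only regions in other tissues turned to 8.69 with other lists cut to 37204 peaks, 3.57 with whole lists and 0.491 at 50% coverage. It was 1.66 among regions under 500 bp and 18.0 at 18602 peaks, both chosen after seeing the data, and lay between -14.3 and 27.2 when an animal or library was left out (exact permutation p from 0.03125 to 0.875 over the alternatives). It was -14.3 or -13.9 without the cortex library of M08 or M22 and 23.0 or 27.2 without the hypothalamus library of M08 or M22. The tissue that lost a library then needs a peak in only 1, and its regions were met less widely. Leaving out an animal gave 13.6 and 12.03. The differences from shared regions kept their sign throughout, between -37.0 and -14.5 for cortex-only and between -45.5 and -22.6 for hypothalamus-only regions when an animal or library was left out. With other lists cut to 37204 peaks they were -42.0 and -50.7, with whole lists -37.1 and -40.7, and at 18602 peaks -13.7 and -31.7. They were -30.6 and -25.1 without cerebellum, and -22.9 and -35.0 without M22, where 5 tissues cannot reach 0.05.

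With the animal as a replicate block, the paired differences between tissues were 3.84 Mb, 65 bp, 1.48 in fold and 0.359 points on X, with p = 0.5 by the exact sign-flip permutation test, the smallest it allows. Neither this test nor the unpaired one could pass 0.05, so no call could change. Within animals the fold difference was 0.919 in M08 and 2.03 in M22, that in covered length 0.892 and 6.78 Mb, that in width 14 and 116 bp and that on X 0.0511 and 0.667 points. With whole lists the differences were 0.00872 in fold, 41.5 Mb, 42 bp and 0.0662 points on X. The cause of these changes was not tested. Read numbers were not used here, and depth limits what a missing peak means.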
